A study of Mus musculus with 8 samples.

Results

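The mitotic spindle, kinetochore and cytokinesis genes are 50 genes that build the machinery of chromosome segregation and cell division. They were taken by symbol from a given list out of the 15653 genes of the deposited matrix, all 50 were found there, and the rule that picks them uses no measured value. They fall into 9 roles: mitotic kinases and cyclins, the chromosomal passenger complex, the spindle checkpoint and protein destruction, protectors of cohesion, the kinetochore, kinesins, spindle-associated proteins, cytokinesis, and chromosome structure. Their level was followed across the deposited cell clusters, the deposited cell cycle phase calls and the sorted populations.

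The study profiled single thymocytes of mice by 5′ single-cell RNA sequencing, with a T cell receptor library of each population. Both sorted populations lack CD4, CD8 and CD44; DN3 cells carry CD25 on their surface and DN4 cells do not. Each was taken from C57BL/6J mice (WT) and from knock-in mice whose genotype is given as GSK3B Ser389Ala (KI), in which the kinase GSK3β has alanine in place of the serine whose phosphorylation the study's title links to its inactivation. Before the sort, cells bearing MHC class II, CD11b, CD4, CD8 or the kappa light chain were depleted with magnetic beads, and the age, sex and number of the mice behind a library are not given. There was 1 gene expression library for each of the 4 groups, WT and KI of either population. Without replicates, groups were compared with no test, so every difference given is one between libraries.

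A cell that divides condenses its chromosomes, attaches each pair of sister chromatids to spindle microtubules through the kinetochore, waits until the spindle checkpoint is satisfied, destroys its cyclins and then cleaves. Most of the genes involved are transcribed in the later part of the cell cycle, through the MuvB complex with MYBL2 and FOXM1, which reads the CHR element of their promoters, and through NF-Y, which binds CCAAT. In the thymus, DN3 cells that have made a working T cell receptor β chain pass β-selection, divide rapidly and become DN4 cells.

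Libraries held between 1477 and 3298 cells and between 16411164 and 30402236 UMIs (counted molecules). The median was 5927 UMIs per cell in WT and 5495 in KI for DN3, and 7121 in WT and 9345 in KI for DN4. Levels are given as CPM, the UMIs of a gene per 1000000 UMIs of the summed cells, which are not set against each other between genes, and differences as log2 ratios of CPM with an exact Poisson interval at 95% confidence, which covers counting error only. A gene was counted as higher or lower when that interval lay above or below 0, among genes with at least 20 CPM in either pool of cells. Il2ra, which encodes CD25, stood at 478 and 425 CPM in the DN3 libraries and 3.84 and 3.75 CPM in the DN4 libraries, so the gated marker separates the populations as labelled. The knock-in changes a codon, which counts of Gsk3b (74.2 to 107 CPM) cannot check. Between 3 and 17 cell barcodes were shared by any pair of libraries.

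Promoters of 43 of the 50 members were in the RefSeq table used here (build GRCm38.p6, 250 bases before to 50 after the start of the gene, 4 members with 2 entries). The CHR element was searched on both strands as TTTGAA and in a form with A at the fourth base, TTTAAA, which reads the same on both strands and was counted once. It was found in 35 of 43 members, or 81.4%, against 30.6% of 27025 genes with an entry and 23.2% of the 11191 of these that the matrix holds. CCAAT was found on either strand in 33 of 43 members, or 76.7%, against 41.1% and 42.5%. Both occurred in 30 of 43 members, or 69.8%, against 12.2% and 9.48%. An E2F-like motif was searched on both strands as TTTGGCG, with TTTCGCG as a second form and with TTTCCCG as the third. It was found in 6 of 43 members, or 14.0%, against 6.38% and 10.5%. Of all promoter entries, 27.6% held the CHR letters, 37.4% the CCAAT letters and 5.58% the E2F letters. No form of a motif contains another motif whole, and a match describes letters in a window, not a bound site.

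To show these elements, the 160 bases before the start are printed for 8 members: the 4 with an entry that had the highest ratio between cells called G2M and cells called S (Ube2c, Hmmr, Cenpf and Plk1, values further on) and the 4 with the lowest (Nuf2, Ncaph, Smc2 and Mad2l1). Each is written 5′ to 3′ along the gene's own strand, with CHR and CCAAT letters of either strand in capitals. The stretches lie at chr2:164769769-164769928 (plus strand) for Ube2c, chr11:40733438-40733597 (minus strand) for Hmmr, chr1:189688087-189688246 (minus strand) for Cenpf and chr7:122159275-122159434 (plus strand) for Plk1. Those of the second set lie at chr1:169531465-169531624 (minus strand) for Nuf2, chr2:127133955-127134114 (minus strand) for Ncaph, chr4:52439061-52439220 (plus strand) for Smc2 and chr6:66535061-66535220 (plus strand) for Mad2l1.
Ube2c: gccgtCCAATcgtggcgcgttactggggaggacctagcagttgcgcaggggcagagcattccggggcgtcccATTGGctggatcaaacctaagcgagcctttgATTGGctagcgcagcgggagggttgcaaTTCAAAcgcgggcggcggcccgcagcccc
Hmmr: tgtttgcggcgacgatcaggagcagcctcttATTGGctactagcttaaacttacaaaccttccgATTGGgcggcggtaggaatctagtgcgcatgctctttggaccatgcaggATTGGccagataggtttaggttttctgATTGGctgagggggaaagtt
Cenpf: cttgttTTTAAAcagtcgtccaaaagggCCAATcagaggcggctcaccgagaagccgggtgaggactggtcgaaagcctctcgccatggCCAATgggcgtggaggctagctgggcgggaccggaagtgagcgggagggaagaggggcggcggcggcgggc
Plk1: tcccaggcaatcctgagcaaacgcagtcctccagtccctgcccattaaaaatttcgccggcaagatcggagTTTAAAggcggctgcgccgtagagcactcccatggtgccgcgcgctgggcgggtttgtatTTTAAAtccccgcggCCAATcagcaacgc
Nuf2: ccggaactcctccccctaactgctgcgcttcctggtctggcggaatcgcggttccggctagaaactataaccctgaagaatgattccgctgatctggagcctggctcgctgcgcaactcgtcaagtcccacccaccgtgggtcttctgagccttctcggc
Ncaph: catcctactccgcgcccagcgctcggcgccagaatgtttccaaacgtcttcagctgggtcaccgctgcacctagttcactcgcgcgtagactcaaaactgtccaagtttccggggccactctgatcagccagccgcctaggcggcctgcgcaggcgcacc
Smc2: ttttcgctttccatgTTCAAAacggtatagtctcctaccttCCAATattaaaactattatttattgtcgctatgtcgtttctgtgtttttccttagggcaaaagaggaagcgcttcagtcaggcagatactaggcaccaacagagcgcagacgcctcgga
Mad2l1: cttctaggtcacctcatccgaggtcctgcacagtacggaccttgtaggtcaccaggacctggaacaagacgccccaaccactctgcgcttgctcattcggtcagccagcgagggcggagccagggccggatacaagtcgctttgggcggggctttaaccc
Ube2c holds 4 such letter groups in this stretch (1 CHR), Hmmr 4 (all CCAAT), Cenpf 3 (1 CHR) and Plk1 3 (2 CHR), while Smc2 holds 2 (1 CHR) and Nuf2, Ncaph and Mad2l1 hold none. Over all members with an entry, the CHR letters were in 20 of the 23 with the higher G2M to S ratio and 15 of the 20 with the lower, CCAAT in 20 of 23 and 13 of 20, and the E2F letters in 1 of 23 and 5 of 20. The cut lay at the median of the measured order, and these counts are a description.

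The members were concentrated in the deposited clusters 4 and 7, lower in clusters 9 and 3, and lowest in clusters 0 and 1. The clusters were made from these same cells by a method not given in the sources used here, so their levels are a description. Clusters 0 and 1, which hold 3.78% and 74.4% of the WT DN3 cells and 73.2% and 1.64% of the KI DN3 cells, were summed into 1 pool. Summed over the 50 members, the level was 8247 CPM in cluster 4 (1204 cells), 9371 CPM in cluster 7 (111 cells), 3472 CPM in cluster 9 (72 cells), 2803 CPM in cluster 3 (1243 cells), 1080 CPM in cluster 6 (550 cells) and 681 CPM in clusters 0 and 1 (4744 cells). In the DN4 clusters 2 and 5 it was 964 and 1071 CPM in WT, and 906 and 910 CPM in KI. Against clusters 0 and 1, 49 of 50 members were at least 2-fold higher in cluster 4, where 12.2% of 6279 genes were, and the median member was 42.9-fold higher. The exception was Smc4, a core subunit of condensin, at 523 against 292 CPM (1.79-fold).

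**Figure D1:**
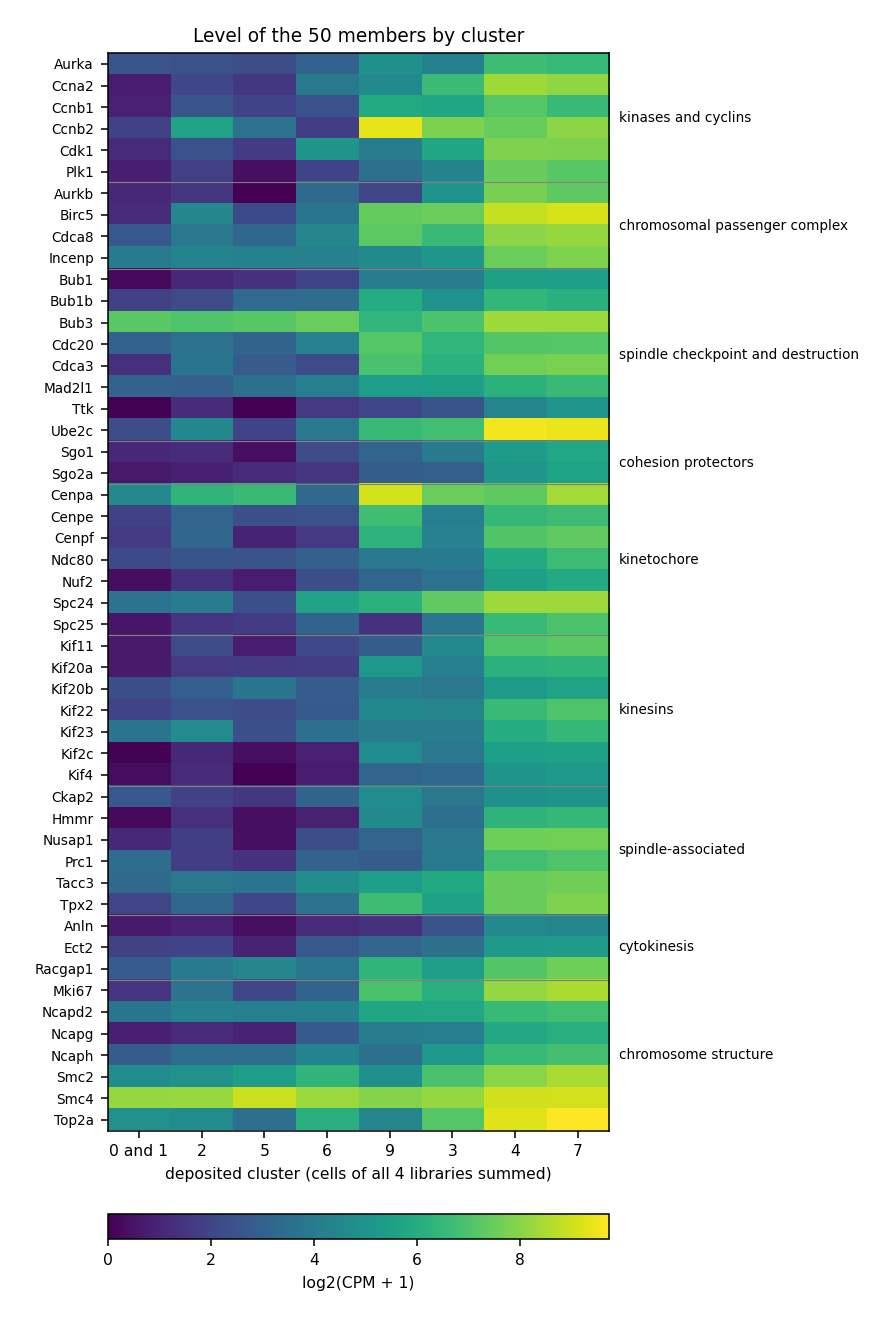
Colour gives the log2 of CPM + 1 of each member (rows, grouped by role) in the summed cells of each deposited cluster (columns, all 4 libraries together). Clusters 4 and 7 are bright over nearly all rows, Smc4 and Bub3 are bright in every column, and Ccnb2 and Cenpa are brightest in cluster 9.

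Among the kinases and cyclins, Cdk1, the kinase that drives entry into mitosis, stood at 228 CPM in cluster 4, 53.8 CPM in cluster 3, 31.5 CPM in cluster 6 and 1.3 CPM in clusters 0 and 1. Its partner Ccna2 (cyclin A2) had 321, 97.4, 14.5 and 0.668 CPM in the same order. Plk1, the kinase that acts from mitotic entry to cytokinesis, had 174, 19.7, 2.96 and 0.747 CPM. Among these clusters Cdk1, Ccna2 and Plk1 were highest in cluster 4, but cluster 6 held Cdk1 and hardly any Plk1. In cluster 7 they had 225, 276 and 145 CPM. Cyclin B2 (Ccnb2) departed from this order, with 174 CPM in cluster 4, 226 CPM in cluster 3, 264 CPM in cluster 7 and 669 CPM in cluster 9.

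In the other roles cluster 4 was also far above clusters 0 and 1, and several members were higher still in cluster 7, such as Top2a with 618 CPM in cluster 4 and 850 CPM in cluster 7. Birc5 (survivin), a subunit of the chromosomal passenger complex that corrects wrong attachments, had 466 CPM in cluster 4, 183 CPM in cluster 3 and 1.26 CPM in clusters 0 and 1. Ube2c, the ubiquitin-conjugating enzyme that works with the anaphase-promoting complex, had 759, 109 and 3.97 CPM. Nusap1, which bundles spindle microtubules, had 189, 13.5 and 1.14 CPM, and its 14.0-fold excess of cluster 4 over cluster 3 was the largest of the members. Bub3, a checkpoint protein, varied least after Smc4, with 319 CPM in cluster 4, 125 CPM in cluster 3 and 151 CPM in clusters 0 and 1. Against cluster 3, 43 of 50 members were at least 2-fold higher in cluster 4, where 2.45% of 5187 genes were. Ccnb2 and Cenpa, the histone H3 variant of the centromere (157 against 181 CPM), were the members lower in cluster 4 than in cluster 3. Cluster 7 resembled cluster 4, with a median fold of 1.15 and Cenpa alone at least 2-fold higher (330 CPM).

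Cluster 6, seen in DN3 and called S in 68.7% of its WT DN3 cells and 76.2% of its KI DN3 cells, held part of the set. Of the 10 members that passed 20 CPM there or in clusters 0 and 1, 7 were at least 2-fold higher in cluster 6, where 8.03% of 6127 genes were. Over all 50 members, without that limit, 35 were at least 2-fold higher, and Cenpa was lower. The share of all genes at that fold without the limit was not computed. The interval lay above 0 for 38 of the 50, against 22.0% of genes with at least 10 UMIs. The 7 were Cdk1 (log2 ratio 4.60), Spc24 of the kinetochore (2.08), Cdca8 of the passenger complex (2.02), the condensin genes Ncaph (1.67) and Smc2 (1.66), Tacc3 of the spindle (1.52) and Top2a, the topoisomerase that untangles chromosomes (1.22). Cenpa was lower, at 9.06 against 23.1 CPM, and passed the limit through clusters 0 and 1 alone. Cdk1, Spc24, Cdca8, Ncaph and Tacc3 passed it through cluster 6 alone, so the limit in part set the count of 7.

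Cluster 9 held 72 cells, almost all of DN3, and 78.9% of its WT DN3 cells and 80.6% of its KI DN3 cells were called G2M. In it 36 of 50 members were at least 2-fold lower than in cluster 4, where 9.92% of 5909 genes were. Ccnb2 at 669 CPM and Cenpa at 530 CPM were 3.84-fold and 3.37-fold higher than in cluster 4, and Cdc20, which activates the anaphase-promoting complex, was level at 142 against 139 CPM. Aurkb, the kinase of the passenger complex, was at 3.20 CPM, Top2a at 20.8 CPM, Kif11 (the motor that separates spindle poles) at 6.4 CPM and Nusap1 at 8.0 CPM. Clusters 4 and 9 both held cells called G2M, with unlike summed profiles. In cluster 4 nearly all members were high, and in cluster 9 Ccnb2 and Cenpa were high and Aurkb was nearly absent. These sums hold cells of every call, and in cluster 4 of WT DN3 39.0% of cells were called G2M. The G2M cells of both clusters were not compared alone. In cells thinned to 3000 UMIs, Ccnb2 was seen in 80.3% of cells of cluster 9 and 34.3% of cluster 4, while Aurkb was seen in 0 of 71 cells of cluster 9 and 45.3% of cluster 4. Unthinned, the shares were 93.1% and 80.4% for Ccnb2 and 2.78% and 93.4% for Aurkb, at median depths of 8780.5 and 22619.5 UMIs per cell.

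Single cells showed the same contrast at equal depth. Thinned to 3000 UMIs per cell, cells of cluster 4 had a UMI of a median of 16 of the 50 members, cells of cluster 3 of 6, cells of cluster 6 of 2 and cells of clusters 0 and 1 of 1. In cluster 4 the median was 12 in WT and 15 in KI for DN3, and 14 in WT and 19 in KI for DN4. Without thinning these medians were 37, 37, 37 and 43, at median depths between 20885 and 23594 UMIs. Ube2c was seen in 63.7% of thinned cells of cluster 4 (95% exact binomial interval 60.9 to 66.4) and in 0.989% of those of clusters 0 and 1. In the DN4 clusters 2 and 5 the thinned shares were 3.73% and 0.621%. The share that free RNA could give was not estimated. The unthinned shares were 90.8% in cluster 4 and 1.96% in clusters 0 and 1, at median depths of 22619.5 and 5143 UMIs.

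Other genes of the same pathways, from lists made by function, were compared between cluster 4 and clusters 0 and 1. Of all 6279 genes tested, 12.2% were at least 2-fold higher in cluster 4 and 21.6% at least 2-fold lower. Of the centromere and kinetochore genes outside the set, 22 of 26 tested were at least 2-fold higher in cluster 4, led by Ska1, Knl1 and Cenpm. Of the other spindle genes 22 of 29 were, of the mitotic entry genes 7 of 10, and of the cohesin, separase and condensin II genes 9 of 16. The anaphase-promoting complex (4 of 17) and the other cytokinesis and abscission genes (4 of 12, with 1 lower) had the smallest counts. Of the transcription regulators 7 of 11 were: Mybl2 had 79.3 CPM in cluster 4 and 1.69 CPM in clusters 0 and 1, and Foxm1 19.8 CPM, against 3 UMIs in all of clusters 0 and 1.

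Between cells called G2M and cells called S, the members formed an order that was alike in the 4 libraries. The phase calls came with the data and no method is given; 31 of the 50 members are in the widely used published list of G2/M genes, so the calls may fix the direction of these ratios, and their order is what is described. In clusters 3 and 4 together, 43 of 50 members were at least 2-fold higher in G2M cells in WT DN3, where 2.31% of 5407 genes were. The counts were 37 of 49 tested in KI DN3 (2.07% of all genes tested), then 45 of 50 for WT DN4 (2.31%) and 44 of 50 for KI DN4 (2.3%). The 19 members outside the published list had median log2 ratios of 1.54, 1.14, 1.63 and 1.5 in these libraries, and the 31 inside it 1.55, 1.35, 1.62 and 1.55.

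**Figure D2:**
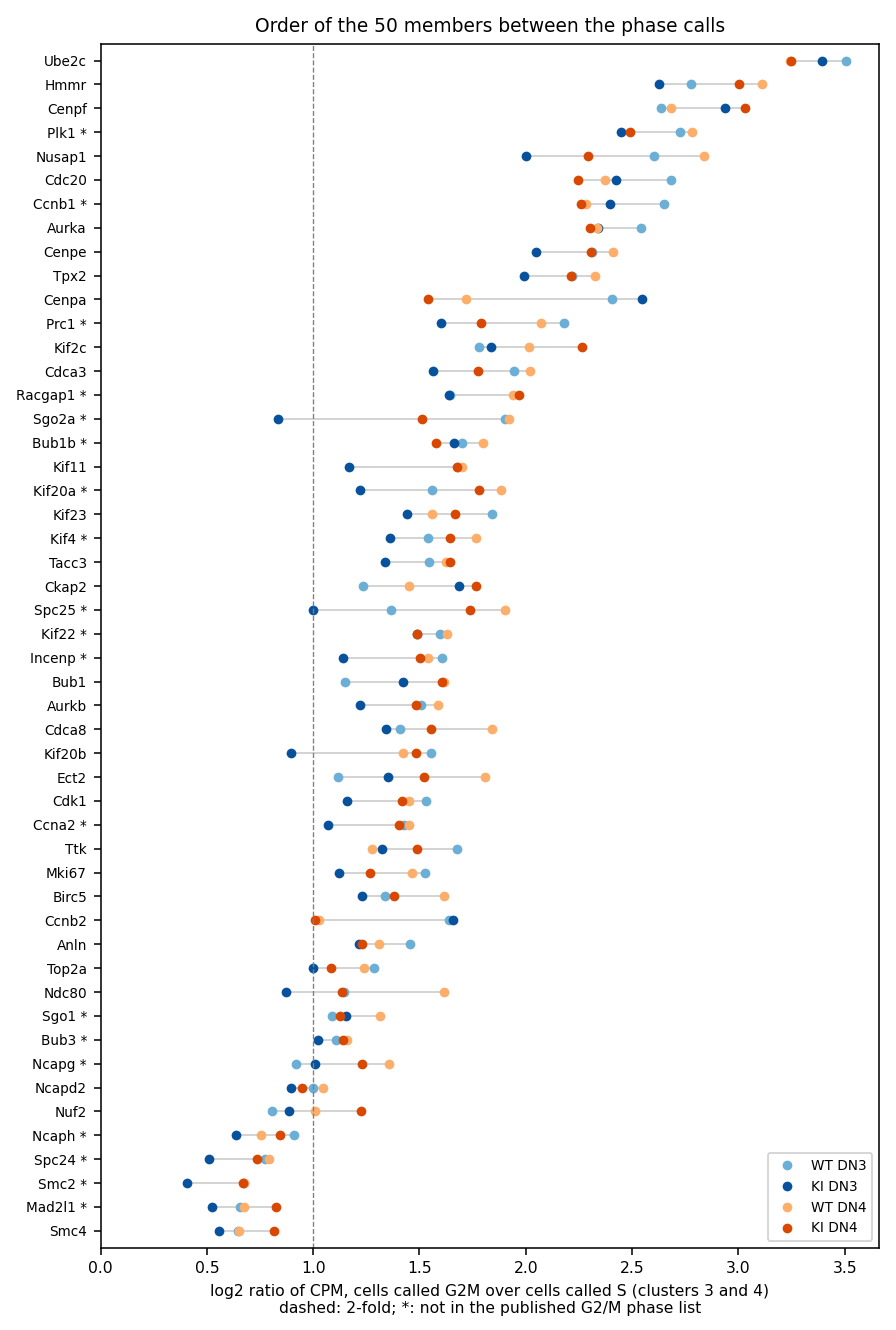
Each point is the log2 ratio of CPM between cells called G2M and cells called S in clusters 3 and 4 of 1 library, for the 50 members (rows, ordered by their median); the grey line spans the 4 libraries and the dashed line is 2-fold. Ube2c lies between 3.25 and 3.51 in every library, and Smc4, Mad2l1, Smc2, Spc24 and Ncaph lie below 2-fold in every library.

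Ube2c headed the order with 1196 CPM in G2M and 105 CPM in S cells of WT DN3, 1248 and 119 CPM in KI DN3, 1095 and 115 CPM in WT DN4, and 1098 and 116 CPM in KI DN4. Next came Hmmr, a spindle-assembly protein (median log2 ratio 2.89), Cenpf of the outer kinetochore (2.81), Plk1 (2.61), Nusap1 (2.45) and Cdc20 (2.40). Cyclin B1 (Ccnb1) and the spindle-pole kinase Aurka both had a median of 2.34. Like the rest of the set, these genes act in chromosome segregation and cell division, and no reason for the order was tested. At the other end stood the condensin genes Smc4 (0.65), Smc2 (0.67), Ncaph (0.80) and Ncapd2 (0.97), the checkpoint gene Mad2l1 (0.66) and the Ndc80-complex genes Spc24 (0.76) and Nuf2 (0.95). Members of 1 complex could lie apart: Spc25, which pairs with Spc24, had 1.55.

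The rank order of the 50 members correlated between libraries with Spearman's rho of 0.79 (KI DN3 and WT DN4) to 0.93 (WT DN4 and KI DN4), across genes that are not independent and share the phase calls. In clusters 3 and 4 together, Cenpa and Ccnb2 differed by stage. Cenpa had log2 ratios of 2.40 and 2.55 in WT and KI DN3 and 1.72 and 1.54 in WT and KI DN4. Ccnb2 had 1.64 and 1.66, then 1.03 and 1.01, in the same order. In WT, Ccnb2 had 96.5 and 160 CPM in S cells of DN3 and DN4, and 301 and 326 CPM in G2M cells. The S cells were 83 of cluster 3 and 130 of cluster 4 in WT DN3, and 177 and 157 in WT DN4. Both genes were higher in cluster 3 than in cluster 4, and the part of this make-up was not tested. In cluster 4 alone the median log2 ratio of the members was 1.20 in WT and 0.93 in KI for DN3, and 1.32 in WT and 0.69 in KI for DN4. With cluster 3 these were 1.55 and 1.34, and 1.62 and 1.53.

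As whole libraries, the members were lowest in WT DN3 and highest in KI DN4. Summed, they made up 2247 CPM in WT and 3016 CPM in KI for DN3, and 3830 CPM in WT and 4818 CPM in KI for DN4. In sums of this kind more dividing cells and more RNA per cell cannot be told apart, and clusters 3, 4 and 7 held 74.1%, 84.1%, 91.0% and 95.8% of the member UMIs with 11.0%, 14.9%, 34.9% and 47.9% of the cells, in the same order of libraries. In the sentences that follow, 4 values of a gene stand in that order too, WT then KI of DN3, and WT then KI of DN4.

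Cdk1 had 51.7, 70.9, 90.7 and 115 CPM, and Plk1 had 29.7, 48.9, 58.8 and 83.6 CPM. Aurkb had 41.2, 61.1, 70.2 and 102 CPM, and Incenp, the scaffold of the same passenger complex, 47.3, 63.9, 75.5 and 94.3 CPM. Each of these genes was lowest in WT DN3 and highest in KI DN4, with KI above WT in either stage. Bub1b, the checkpoint kinase BubR1, had 20.8, 28.0, 39.7 and 50.6 CPM, and Ttk had 4.06, 6.31, 10.4 and 10.4 CPM. Bub1 had 12.1, 12.9, 23.5 and 23.1 CPM, so that its DN4 libraries were level. Ndc80, which holds the microtubule end at the kinetochore, had 15.5, 19.7, 26.9 and 33.8 CPM, and Cenpa had 65.0, 82.9, 142 and 162 CPM. Kif20a, a kinesin of the cleavage furrow, had 16.4, 23.0, 30.0 and 36.3 CPM. Among the cytokinesis genes, Racgap1, a subunit of centralspindlin, had 37.3, 46.3, 65.7 and 79.2 CPM, and Ect2 had 9.98, 11.6, 19.2 and 20.1 CPM. Top2a had 134, 207, 245 and 340 CPM and Mki67, the proliferation antigen that coats mitotic chromosomes, 62.1, 89.1, 128 and 142 CPM. With Bub1 and Ttk, whose DN4 libraries were level, aside, these members had no library out of the order.

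**Figure D3:**
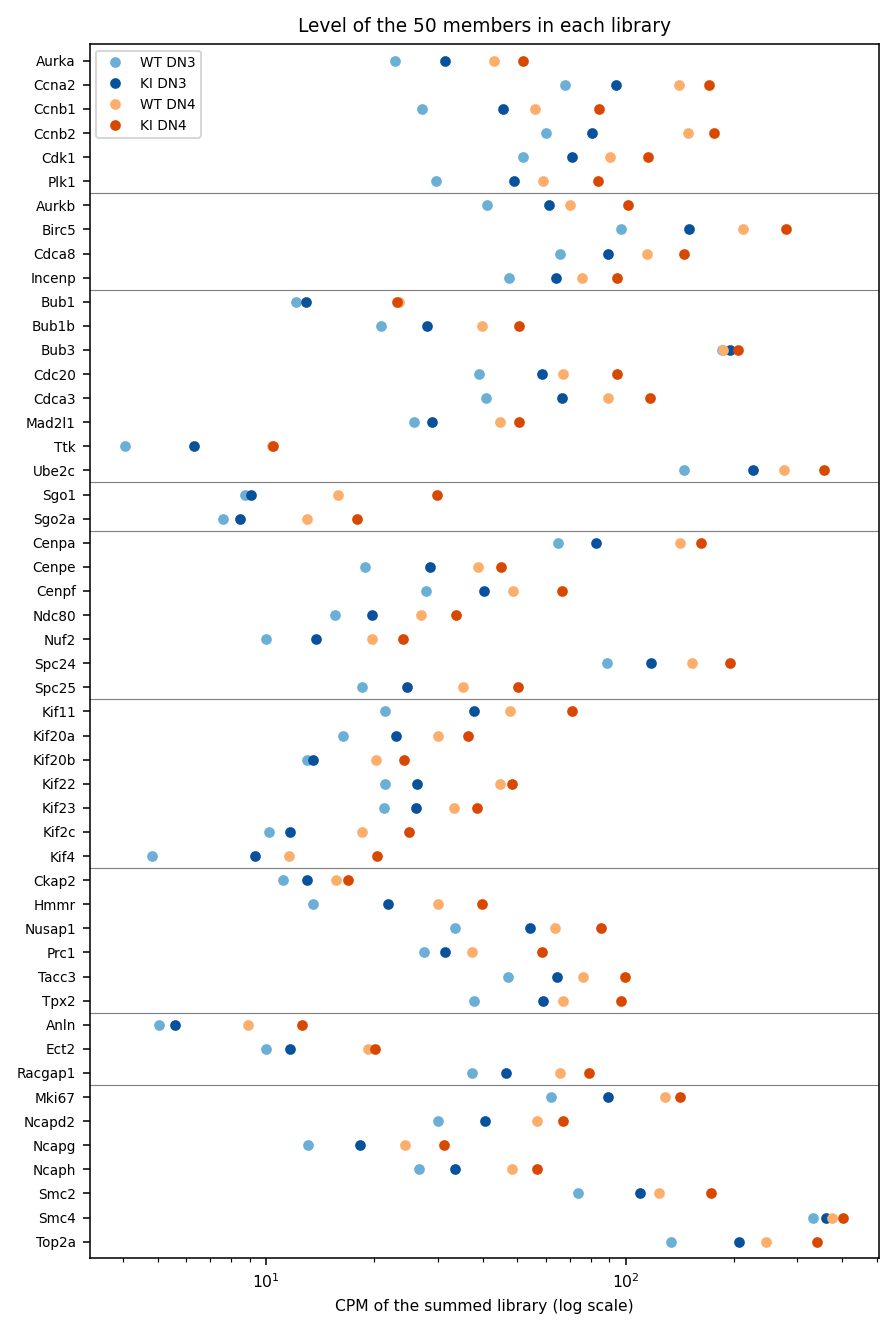
Points give the CPM of each member (rows, grouped by role as in the cluster map) in the 4 libraries on a log axis. In nearly every row the order from left to right is WT then KI of DN3, followed by WT then KI of DN4, while the 4 points of Bub3 lie between 185 and 205 CPM.

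From DN3 to DN4 the members were higher in both genotypes. In WT, 40 of the 41 members that passed 20 CPM were higher in DN4, against 33.9% of 5987 genes, and 11 of them at least 2-fold, against 3.82%. Over all 50 members 49 were higher, all but Bub3. The median log2 ratio was 0.88, against -0.03 over all genes tested. In KI, 46 of 46 tested and 50 of all 50 were higher, against 31.5% of 5822 genes, with a median of 0.77 against -0.07. Without the limit of 20 CPM, 27.6% of genes with at least 10 UMIs were higher in DN4 in WT and 24.2% in KI.

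Among members above 20 CPM, Ccnb2 had the highest ratio in WT, with 60.1 CPM in WT DN3 and 149 CPM in WT DN4 (log2 ratio 1.31, interval 1.22 to 1.41), and in KI it went from 80.4 to 176 CPM (1.13, 1.05 to 1.20). Hmmr (1.16), Kif11 (1.15), Birc5 (1.13) and Cenpa (1.13) followed in WT. Under that limit Ttk (1.35) and Kif4 (1.27) had wider intervals in WT. Sgo1 (shugoshin), which protects centromeric cohesion until anaphase, had the highest ratio in KI, at 9.05 CPM in DN3 and 29.8 CPM in DN4 (1.72, 1.51 to 1.93). After Sgo1 in KI came the chromokinesin Kif4 (1.13), Ccnb2, the microtubule-depolymerising kinesin Kif2c (1.10) and Spc25 (1.02). In WT, Sgo1 stood at 8.74 CPM in DN3 and 15.8 CPM in DN4. Bub3 differed least between stages, at 185 and 187 CPM in WT (0.02, -0.05 to 0.09) and 195 and 205 CPM in KI, with Smc4 next (0.17 and 0.16). The markers of cells before and after β-selection moved with the stage. All 7 tested pre-selection markers (of 8 listed) were lower in WT DN4, where 38.9% of 5987 genes were. The 8 listed summed to 1337 and 1166 CPM in WT and KI DN3 and 168 and 134 CPM in WT and KI DN4. Of the markers of cells past β-selection, 6 of 6 tested were higher in WT DN4, against 33.9% of 5987 genes. In KI 5 of 6 were, against 31.5% of 5822 genes. The γδ T cell markers went both ways, with 5 of 8 tested higher and 2 lower in WT, and 3 of 6 higher and 3 lower in KI. The NK, innate lymphoid and NKT markers summed to 537 CPM in DN3 and 1448 CPM in DN4 of WT, with 4 of 5 tested higher, and to 466 and 1345 CPM in KI. Their part in the result was not tested. Without clusters 2, 5 and 7 the median log2 ratio of the members was 1.39 in WT and 1.04 in KI.

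Within cluster 4 the stage difference was small in WT. The summed level of the members was 6928 CPM in WT DN3 and 7204 CPM in WT DN4, 14 of 50 members were higher in DN4 against 11.6% of 5306 genes, and the median log2 ratio was 0.04. In KI it was 7918 and 9919 CPM, 47 of 50 were higher against 15% of 5253 genes, and the median was 0.35. Sgo1 (1.28), Anln, the anillin of the contractile ring (0.87), and Prc1, which bundles the central spindle (0.85), had the highest ratios in KI. In WT, Prc1 stood at 90.2 CPM in DN3 and 83.6 CPM in DN4. The comparisons in WT and KI share no library, and the difference between them was not tested.

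Between genotypes the members were higher in KI in both stages. In DN3, 37 of the 37 members that passed 20 CPM were higher in KI, against 27.7% of 5797 genes, and over all 50 members 42 were higher and 0 lower. Those under the limit in both DN3 libraries were Bub1, Ttk, Sgo1, Sgo2a, Kif4, Kif20b, Kif2c, Ndc80, Nuf2, Anln, Ect2, Ncapg and Ckap2. The median log2 ratio was 0.46, against 0.00 over all genes tested, and no member differed 2-fold. In DN4, 43 of 46 tested were higher, against 25.1% of 5592 genes, over all 50 members 45 were higher and 0 lower, and the median was 0.35 against -0.05. Ttk, Sgo2a, Anln and Ckap2 were under the limit in both DN4 libraries. TMM or DESeq2 scaling moved all genes by 0.11 or 0.12 in this comparison and by 0.12 or 0.13 in DN4 against DN3 of KI, upwards in each, and by at most 0.03 in the other library comparisons. Of genes with at least 10 UMIs and no limit on CPM, 17.1% were higher in KI in DN3 and 13.1% in DN4.

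Among members above 20 CPM, the highest ratios in DN3 were those of Kif11, with 21.4 CPM in WT and 37.9 CPM in KI (0.83, 0.67 to 0.99), Ccnb1 with 27.1 and 45.6 CPM (0.75), Plk1 with 29.7 and 48.9 CPM (0.72), Cdca3, which triggers the destruction of Wee1 (0.70), and Nusap1 (0.69). The lowest were Bub3 (0.08), Smc4 (0.12), Mad2l1 (0.17), Prc1 (0.19) and the chromokinesin Kif22 (0.29). Under the limit, Kif4 had 4.81 CPM in WT and 9.28 CPM in KI (0.95, 0.62 to 1.29), and Sgo1 (0.05) and Kif20b (0.05) had intervals that held 0. In DN4 the highest were Sgo1 with 15.8 CPM in WT and 29.8 CPM in KI (0.91, 0.71 to 1.11), Kif4 with 11.6 and 20.3 CPM (0.81), Prc1 (0.65), Ccnb1 (0.59) and Kif11 (0.58). The lowest were the checkpoint kinase Bub1 (-0.02), Ect2, which activates RhoA at the cleavage site (0.07), Smc4 (0.10), Kif22 (0.12) and Bub3 (0.13). Ccnb1 and Kif11 were thus near the top in both stages, and Prc1 went from near the bottom in DN3 to near the top in DN4. Across the 37 members tested in both stages, whose libraries are separate, the ratios correlated with Spearman's rho of 0.65 and Pearson's r of 0.61.

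By role, each group with tested members had a positive median in both stages. In DN3 the medians were 0.46 for the 6 kinases and cyclins, 0.51 for the 4 passenger genes, 0.50 for the checkpoint and destruction genes, 0.41 for the kinetochore, 0.39 for the kinesins and 0.64 for the spindle-associated genes. In DN4 they were 0.31, 0.37, 0.35, 0.33, 0.27 and 0.43 in the same order. The chromosome structure genes had 0.48 in DN3 and 0.24 in DN4, and the cytokinesis genes 0.31 and 0.17. Lists outside the set had medians below those of all tested members (0.46 in DN3 and 0.35 in DN4), and not all were positive. In DN4 the other centromere and kinetochore genes had a higher median than the kinesins, chromosome structure and cytokinesis genes of the set. Of all genes tested, 27.7% were higher and 27.5% lower in KI in DN3, and 25.1% and 37.9% in DN4. Of the other centromere and kinetochore genes, 11 of 17 tested were higher and 1 lower in KI in DN3 (median 0.26). In DN4 16 of 20 were higher (0.31). Of the other spindle genes 16 of 22 were higher and 2 lower in DN3, and 15 of 25 higher and 4 lower in DN4. The anaphase-promoting complex genes had medians of 0.13 and 0.15, and the other cytokinesis and abscission genes 0.03 and -0.15, with 0 of 9 higher and 6 lower in DN4. The genes of the published S phase list were also higher, 29 of 37 tested in DN3 and 33 of 40 in DN4.

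The make-up of the libraries differed with genotype. With the share of UMIs from each cluster held at that of WT, an alternative chosen after seeing the data, the median log2 ratio in DN3 went from 0.46 to 0.14, and in DN4 from 0.35 to 0.39. Cluster 4 held 7.38% of the cells in WT and 10.5% in KI for DN3, and 16.99% and 15.3% for DN4, and cluster 3 held 3.33% and 4.18%, and 16.4% and 29.8%. Leaving out clusters 2, 5 and 7 took the DN4 median to 0.14, with 27 of 48 tested members higher. Summed cell type markers were lower in KI in DN4, where 37.9% of 5592 genes were lower in KI. The summed level of 8 γδ T cell markers was 619 CPM in WT and 447 CPM in KI, with 8 of 8 lower. That of 10 NK, innate lymphoid and NKT markers was 1448 and 1345 CPM, with 4 of 5 tested lower. In DN3 those sums were 876 and 695 CPM and 537 and 466 CPM, and the NK genes Ccl5 and Klrb1c were at 0 in both DN3 libraries. In DN4 the markers of cells past β-selection were at 751 CPM in WT and 542 CPM in KI, with 6 of 6 tested lower. The part of these cells and of the depth gap between the DN4 libraries in the result was not tested.

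Within cluster 4, where most member UMIs lay, the members were higher in KI in DN4, with a smaller difference in DN3; the contrast between the stages was not tested. The summed level was 6928 CPM in WT DN3 and 7918 CPM in KI DN3 (213 and 347 cells), and 7204 CPM in WT DN4 and 9919 CPM in KI DN4 (251 and 393 cells). All 50 members passed the limit in both stages. In DN3, 24 of 50 were higher and 2 lower in KI, with a median log2 ratio of 0.13, against 15.2% of 5324 genes higher and 13% lower. In DN4, 45 of 50 were higher and 0 lower, with a median of 0.47, against 17.6% of 5177 genes. Median depth per cell was 22941 UMIs in WT and 20885 in KI for DN3, and 23594 and 23071 for DN4. The γδ T cell markers summed to 525 CPM in WT and 441 CPM in KI in cluster 4 of DN3, and to 230 and 192 CPM in cluster 4 of DN4, and the 10 NK-type markers to 669 and 637 CPM in DN3 and 718 and 598 CPM in DN4. Of these 10, Ccl5, Klrd1, Klrb1c and Zbtb16 were at 0 in cluster 4 of all 4 libraries. The part of these cells and of depth was not tested.

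**Figure D4:**
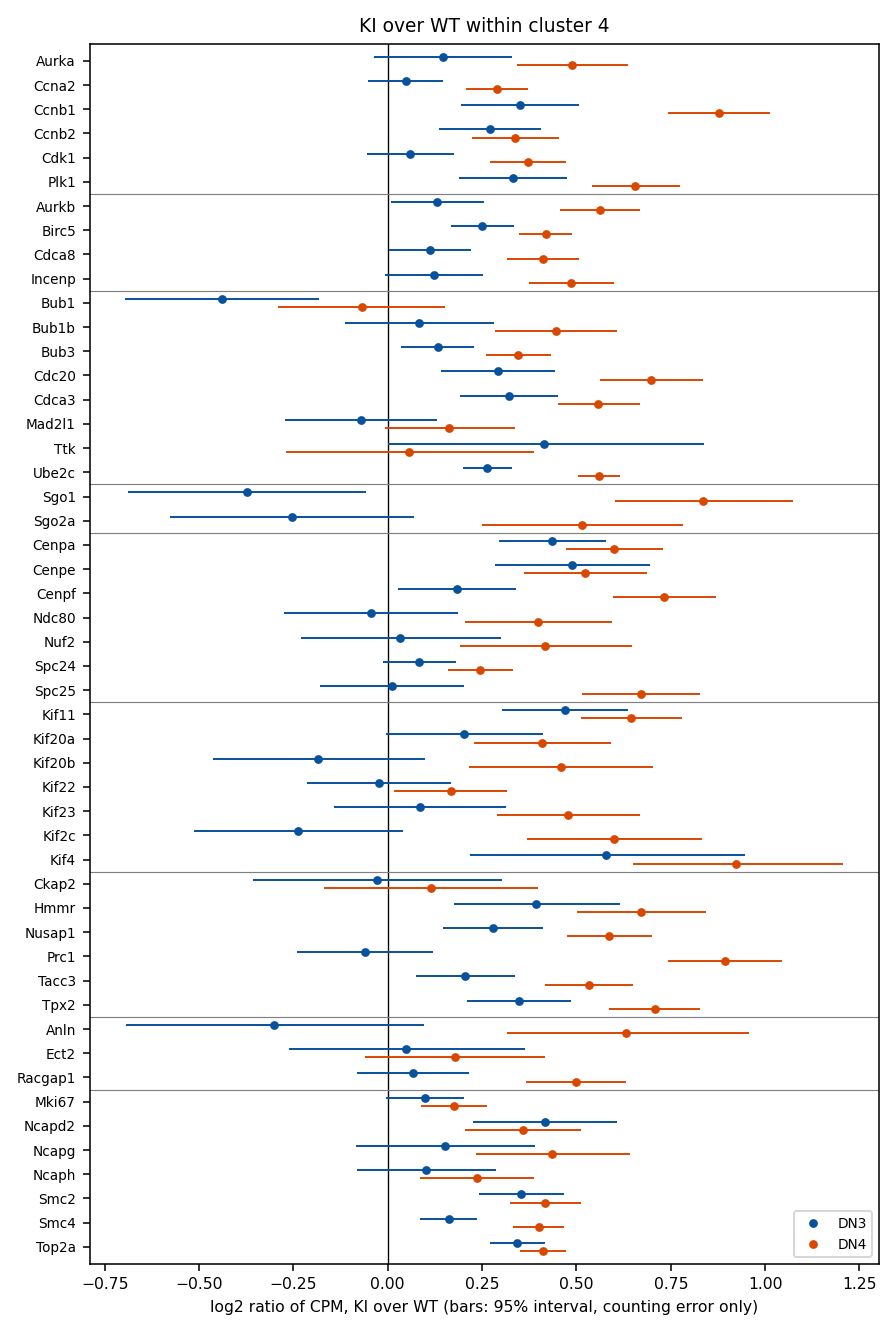
Each point is the log2 ratio of CPM, KI over WT, of a member (rows, grouped by role) within cluster 4, with its 95% interval for counting error, in DN3 (blue) and DN4 (orange). The DN4 points centre on 0.47 and the DN3 points on 0.13, and Sgo1 lies below 0 in DN3 and above 0 in DN4.

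In DN4 the 5 highest members of cluster 4 were Kif4, with 24.7 CPM in WT and 46.8 CPM in KI (0.92, 0.65 to 1.21), Prc1 with 83.6 and 155 CPM (0.89, 0.74 to 1.04), Ccnb1 with 104 and 190 CPM (0.88, 0.74 to 1.01), Sgo1 with 34.8 and 62.1 CPM (0.84, 0.60 to 1.07) and Cenpf with 104 and 173 CPM (0.73, 0.60 to 0.87). Kif4 and Prc1 act together in the spindle midzone. The lowest were Bub1 with 49.0 and 46.7 CPM (-0.07, -0.29 to 0.15), Ttk, the checkpoint kinase also called Mps1 (0.06), Ckap2 (0.11), Mad2l1 (0.16) and Kif22 (0.17). Bub1, Ttk and Mad2l1 are spindle checkpoint genes, whereas Cdc20, the target of the checkpoint, went from 105 to 170 CPM (0.70). The checkpoint genes were not alike as a group, since Bub1b had 0.44 and Bub3 0.35.

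In DN3 the same 5 genes in cluster 4 had 19.4 CPM in WT and 28.9 CPM in KI for Kif4 (0.58), 90.2 and 86.4 CPM for Prc1 (-0.06), 106 and 135 CPM for Ccnb1 (0.35), 33.1 and 25.5 CPM for Sgo1 (-0.37) and 111 and 126 CPM for Cenpf (0.18). Sgo1 (GRCm38 chr17:53674786-53689333, minus strand) and Bub1 (-0.44, -0.70 to -0.18) were the 2 members lower in KI. The other shugoshin gene, Sgo2a, had 30.1 and 25.3 CPM in DN3 (-0.25) and 29.2 and 41.7 CPM in DN4 (0.51); it has a close copy in the mouse, Sgo2b, with which counts could be shared. Kif4 had the highest ratio in DN3 as well, and Cenpe, the kinesin that moves chromosomes to the plate, came next (60.3 and 84.5 CPM, 0.49). Across the 50 members the ratios of DN3 and DN4 in cluster 4 correlated with Spearman's rho of 0.27 and Pearson's r of 0.25.

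In cluster 4 of DN4 the genotypes differed in the cells called S and little in those called G2M. Of the cells of cluster 4, 39.0% were called G2M in WT (exact binomial interval 32.4 to 45.9) and 44.1% in KI (38.8 to 49.5) for DN3. For DN4 the shares were 37.5% in WT (31.4 to 43.8) and 58.5% in KI (53.5 to 63.4), and the rest were called S. These calls rest in part on member genes, if the published list was used. Among G2M cells, 13 of 50 members were higher in KI DN4 and 4 lower, against 10.4% of 5211 genes higher and 12.7% lower, with a median log2 ratio of 0.07 and a summed level of 11559 CPM in WT and 12073 CPM in KI. Among S cells, 43 of 48 tested were higher and 0 lower, against 13.7% of 5206 genes, with a median of 0.68 and a summed level of 4327 CPM in WT and 6573 CPM in KI. With the phase shares held at those of WT the median over cluster 4 was 0.31, against 0.47 as measured.

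**Figure D5:**
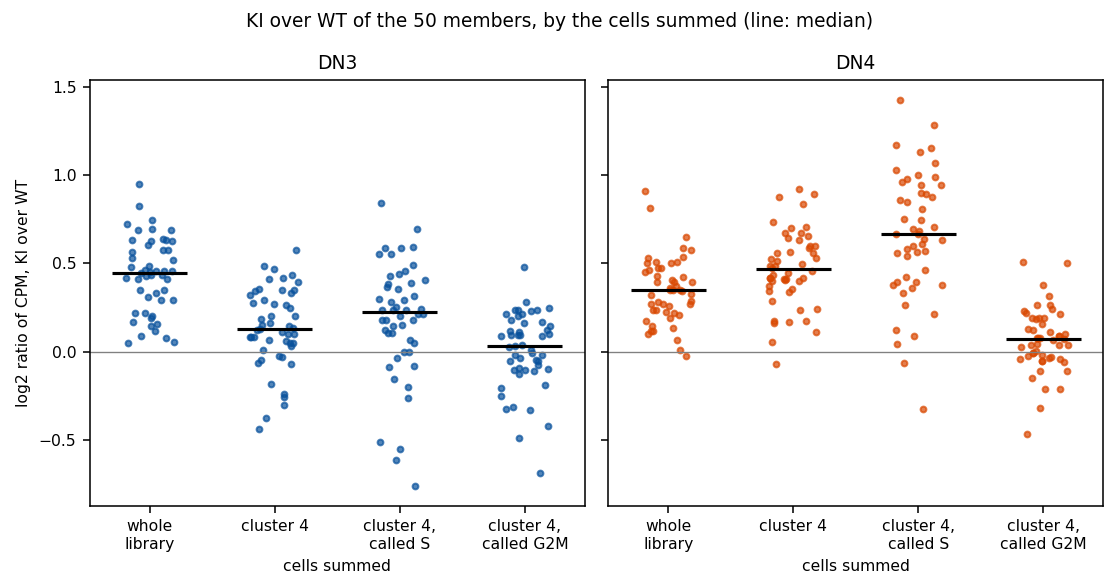
Each point is the log2 ratio of CPM, KI over WT, of a member, in DN3 (left) and DN4 (right), for the whole library, cluster 4, and its cells called S or G2M; the line is the median over all 50 members. In DN4 the line stands at 0.67 in S cells and at 0.07 in G2M cells, and in DN3 at 0.23 and 0.03.

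In DN3 the same split gave 10 of 50 higher and 3 lower among G2M cells, against 10.1% of 5415 genes higher and 9.25% lower, with a median of 0.03. Among S cells 21 of 46 tested were higher and 2 lower, against 11.7% of 5290 genes higher and 10.3% lower, with a median of 0.24. Over all 50 members in S cells of DN3, 21 were higher and 3 lower. Prc1 in S cells of DN4 had 42.1 CPM in WT and 113 CPM in KI (1.43, 1.15 to 1.71), Nusap1 62.0 and 151 CPM (1.29), Kif4 15.7 and 35.4 CPM (1.17), Plk1 56.9 and 127 CPM (1.15) and Tpx2, which nucleates spindle microtubules, 59.2 and 130 CPM (1.13). In G2M cells of DN4 the same genes differed less, Prc1 with 146 CPM in WT and 182 CPM in KI (0.32). Sgo1 (0.51), Kif4 (0.50) and Ccnb1 (0.38) had the highest ratios there, and Bub1, at 76.8 CPM in WT and 55.8 CPM in KI (-0.46, -0.73 to -0.19), the lowest. The S phase list moved otherwise than the members in cluster 4 of DN4. Of its tested genes, 9 of 42 were higher and 18 lower in KI, against 17.6% of 5177 genes higher and 20.3% lower. Its member Ung, the uracil glycosylase, had 116 CPM in WT and 29.9 CPM in KI (-1.95), and E2f1, a regulator of S phase genes, 92.9 and 48.9 CPM (-0.92), while Mybl2 had 80.4 and 72.5 CPM. Outside the set, the separase gene Espl1 (1.07), Pimreg (0.86) and Kif14 (0.85) had the highest ratios of their lists.

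In cluster 3 of DN4 more members were higher than lower in KI. Of 31 tested, 16 were higher in KI, against 17.5% of 5161 genes, and 4 were lower, a smaller share than the 22.1% of all genes. Over all 50 members 23 were higher and 4 lower, against 9.68% and 15.5% of genes with at least 10 UMIs. The median log2 ratio of the members was 0.25. Aurkb stood at 14.4 CPM in WT and 42.9 CPM in KI (1.57, 1.20 to 1.97), Kif11 at 12.6 and 29.8 CPM (1.24), Top2a at 80.6 and 188 CPM (1.22) and Plk1 at 11.5 and 24.0 CPM (1.06). Aurkb, Kif11 and Plk1 passed the limit of 20 CPM through KI alone, where they were high. Cenpe (-0.55), Cenpa with 223 and 168 CPM (-0.41), Cenpf (-0.38) and Ccnb2 with 270 and 214 CPM (-0.34) were lower in KI. In DN3, with 96 and 138 cells, 4 of 26 tested were higher and 2 lower, against 11.6% of 5229 genes higher and 8.01% lower, shares near those of the members. Over all 50 members 4 were higher and 3 lower. Top2a (0.87), Ccnb1 (0.58), Smc2 (0.52) and Spc24 (0.25) were higher, and Ube2c with 93.0 CPM in WT and 44.5 CPM in KI (-1.06) and Cenpe (-0.92) were lower. Across the 26 members tested in both stages the ratios correlated with Spearman's rho of 0.59.

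The other clusters were small or held few members. In cluster 7 of DN4, with 22 cells in WT and 75 in KI, 24 of 50 were higher in KI and 0 lower, against 6.36% of 5948 genes higher, with a median of 0.49. Cdc20 (68.5 and 201 CPM, 1.55) and Sgo1 (10 UMIs in WT and 75 in KI, 1.54) had the highest ratios, and 27.3% of the WT cells and 57.3% of the KI cells were called G2M. In clusters 0 and 1 of DN3 no tested member was higher and 3 of 5 were lower in KI, against 22.9% of 5964 genes lower. Over all 50 members 2 were higher and 4 lower. The 3 were Cenpa (28.1 and 17.9 CPM, -0.65), Top2a (-0.33) and Bub3 (-0.13). In cluster 6 of DN3 the 11 tested members had intervals that held 0, against 10.9% of 5444 genes higher and 9.68% lower. Over all 50 members 0 were higher and 1 lower there. In cluster 2 of DN4, 1 of 10 tested members was higher and 1 lower, against 12% and 17.8% of all genes. In cluster 5 of DN4, 0 of 5 were higher and 1 lower, against 6.55% and 11.1%. The counts of clusters 6, 2 and 5 do not stand apart from the shares over all genes.

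Within cluster 4 of DN3, cells with a productive TRB chain (the β chain of the T cell receptor, read in the paired receptor library) had lower member levels than cells without one. With any TRB contig in place of a productive chain, the cells and ratios were the same. Cells without a chain thus had no TRB contig read, and a missed chain cannot be told from an absent one. The summed level was 6697 CPM in 178 cells with and 8481 CPM in 35 cells without a chain in WT (log2 ratio -0.34, -0.38 to -0.30), and 7641 CPM in 286 and 9637 CPM in 61 cells in KI (-0.33, -0.37 to -0.30). In WT 26 of 49 tested members were lower in cells with a chain, against 12.3% of 5564 genes, and in KI 29 of 49 were, against 15.2% of 5523 genes. Nusap1 stood at 136 CPM with and 241 CPM without a chain in WT (-0.82) and at 167 and 269 CPM in KI (-0.69). Depth moved with this result: the median was 23554 UMIs per cell with and 16498 without a chain in WT and 21704 and 15245 in KI, and its part was not tested. In cluster 6 the log2 ratio of the summed level was 0.14 in WT (0.02 to 0.26) and 0.01 in KI (-0.10 to 0.12). In clusters 0 and 1 it was 0.10 (-0.02 to 0.21) and 0.11 (-0.02 to 0.24).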

How the data were processed

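Single-cell gene expression counts of sorted DN3 and DN4 thymocytes from WT and KI mice were analysed, 1 library for each of 4 groups, with the DN3 receptor contigs. The authors deposited a merged matrix of UMI counts (whole molecules per gene and cell, 15653 genes, 10237 cells) with cluster and phase labels for each cell. Cell Ranger (3.1.0, 6.0.1) and mm10 are named, per the submitters' processing notes, with no role; the cell filter, the clustering and the phase calling are not given in the sources used here. Cells in the matrix held 717 to 46885 UMIs, and no cell was removed. The DN4 contigs and the clonotype tables were not used here.

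Counts were summed over the cells of a pool and divided by all UMIs of the pool (CPM). Genes with at least 20 CPM in either pool and 10 UMIs over both were tested. A ratio of 2 sums carries an exact Poisson interval at 95% confidence. Intervals and floors (3 counts) cover counting error only, so with 1 library per group they compare libraries, not conditions, and no p-value was computed. Fold calls used 2-fold. The script for these ratios was tested on simulated data. To compare depths, cells were thinned to 3000 UMIs, which left out 790 shallower cells. Doublets were called with Scrublet in scanpy 1.11.5 for each library (73 cells, 0.713%) and left in. In the DN3 libraries it marked 0.139% and 0.152% of cells, too few to have worked there. Scaling alternatives used edgeR 4.0.16 (TMM) and DESeq2 1.42.0 (size factors), with no test by either. Other alternatives were a limit of 5 CPM, per-cell means, thinned cells, and leaving out doublets, clusters or phases. Promoters came from RefSeq (GRCm38.p6), loci from the GENCODE vM21 annotation. Values were computed with Python 3.11.15, numpy 2.4.6, scipy 1.17.1, pandas 2.3.3 and R 4.3.3.

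All members could be named; values were given for the members with the 5 highest and 5 lowest ratios of a comparison and the member of each role with the highest CPM, and from each other list for at most 3 genes with the largest ratios. Other members and Mybl2 and Foxm1 were named after their values were seen. The members and lists were chosen with earlier results of these data known.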

Additional observations from a re-analysis of the deposited data

Results flagged for a closer look

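Sgo1, the shugoshin that protects centromeric cohesion, had opposite directions in the 2 stages within cluster 4. There cluster 4 its log2 ratio of CPM, KI over WT, was -0.37 in DN3 (33.1 CPM in WT and 25.5 CPM in KI) and 0.84 in DN4 (34.8 CPM in WT and 62.1 CPM in KI). Each stage gives a single ratio of 1 KI to 1 WT library, Sgo1 was singled out for this contrast, and the difference between stages was not tested. Over whole libraries Sgo1 had 8.74 CPM in WT and 9.05 CPM in KI for DN3, a log2 ratio of 0.05 with an interval that held 0, and 15.8 and 29.8 CPM for DN4.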

How the results depend on the processing

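Of 132 alternative values, 103 lay within the limits set here, 28 moved beyond them and 1 turned direction, and the cause was not tested. Some of the 103 could hardly move. Any TRB contig picked the same cells as a productive chain, and a limit of 5 CPM gave the same values as no limit. Leaving out doublets in DN3 rests on calls too few to have worked there. The count is therefore no measure of how firm the results are. The limit for a median was the median half-width of the members' intervals, and for a count 1.5 times. Within it, the cluster 4 median in DN3 still went from 0.13 to 0.03 in G2M cells and to 0.24 in S cells. No paired analysis was possible because each group has 1 library and the labels give no replicate numbers. For KI against WT in DN3, thinning cells left 16 of 22 tested members higher, and holding cluster shares at those of WT gave a median log2 ratio of 0.14. In DN4 the median was 0.46 with TMM, 0.47 with DESeq2 size factors, 0.52 as the mean of per-cell shares and 0.59 in thinned cells. Without clusters 2, 5 and 7 it was 0.14 with 27 members higher. For DN4 against DN3 in WT, per-cell means gave 1.16, leaving out those clusters 1.39 and thinning 1.24. In KI, TMM gave 0.89, DESeq2 0.90, per-cell means 1.29, leaving out those clusters 1.04 and thinning 1.37. In cluster 4, G2M cells alone gave 10 members higher in DN3, and 13 with a median of 0.070 in DN4. S cells alone gave 0.68 in DN4, and holding phase shares at those of WT 0.31. In cluster 3 of DN4, 6 of 45 tested members were higher in G2M cells. In cluster 6 of DN3, the per-cell mean turned the median from -0.12 to 0.022, and leaving out doublets gave 2 members higher. The G2M to S medians in cluster 4 alone were 1.20 and 0.93 in WT and KI DN3, and 1.32 and 0.69 in WT and KI DN4. On the forward strand alone the E2F letters were in 3 members. The settings that hold cluster or phase shares at those of WT, and the one with S cells alone, were chosen after seeing the data. In clusters 0, 1, 2 and 5 most members were under 20 CPM and were not compared.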

Other observations

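A relation between cluster 9 and cluster 3 was noticed in the data. For the 31 members tested in cluster 3 of DN4, the ratio between genotypes (log2, KI over WT) was set against the log2 ratio of cluster 9 over cluster 4 in DN3, 2 comparisons that share no library. Pearson's r was -0.85 and Spearman's rho -0.76, across genes that are not independent replicates. Ccnb2 had 2.02 in the cluster 9 comparison and -0.34 in cluster 3 of DN4, while Aurkb, Kif11 and Top2a, all low in cluster 9, were at 1.57, 1.24 and 1.22 there. Aurkb and Kif11 were among the tested members through their KI level alone. In cluster 3 of DN4 the 4 lower members were a smaller share than the 22.1% of all genes that were lower, so this describes the order of the members alone, and no explanation of it was tested.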
